A study of Mus musculus with 13 samples.

Results

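Along a myelinated axon, adhesion molecules hold the axon to its Schwann cells in a fixed order of domains, and this group comprised 10 genes of these domains, chosen by symbol. Of the 10 genes, 8 had a probe set among the 15437 genes tested: Cadm3, Cadm4, Cntnap2, Cntn1, Nrcam, Ank3, L1cam and Ncam1. No row was named for Nfasc (neurofascin) or Gldn (gliomedin), so they were not analysed here. RNA came from sciatic nerve of BKS mice aged 24 weeks, 7 samples of db/+ and 6 of db/db genotype, each hybridised to 1 array. The db allele disrupts the leptin receptor gene Lepr. Obesity and diabetes develop in the homozygotes (db/db), and the heterozygous db/+ controls carry 1 copy of the same allele.

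At the node of Ranvier, neurofascin and the neuronal cell adhesion molecule encoded by Nrcam bind gliomedin from the Schwann cell and are anchored, with the sodium channels, by ankyrin-G, the product of Ank3. Beside the node lies the paranode, where contactin-1 (Cntn1) and its partner Caspr (Cntnap1) on the axon bind glial neurofascin. Next comes the juxtaparanode, where Caspr2 (Cntnap2) gathers potassium channels. Along the internode, Cadm3 on the axon binds Cadm4 on the Schwann cell. L1cam and Ncam1 are carried by unmyelinated axons and by the Schwann cells that ensheath them.

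The upstream sequences of 4 members are shown to set the member that differed most steadily (Cadm3) beside its glial binding partner (Cadm4), the member with the greatest difference (Cntnap2) and the member with the smallest (Nrcam). RefSeq's promoter table (GRCm38.p6) held 8 of the 10 genes, Nfasc and Gldn among them, and each sequence is the 250 bases before the gene's most upstream start, read on the gene's strand. Capitals mark GC boxes (GGGCGG, or CCGCCC on the other strand), the letters bound by factors of the Sp family.
Cadm3, chr1:173367696-173367945, minus strand: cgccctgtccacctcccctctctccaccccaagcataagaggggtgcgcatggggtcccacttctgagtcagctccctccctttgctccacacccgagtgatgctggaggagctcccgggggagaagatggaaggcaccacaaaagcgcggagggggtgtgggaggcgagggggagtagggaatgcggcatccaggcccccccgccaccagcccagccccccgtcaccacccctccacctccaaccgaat
Cadm4, chr7:24481773-24482022, plus strand: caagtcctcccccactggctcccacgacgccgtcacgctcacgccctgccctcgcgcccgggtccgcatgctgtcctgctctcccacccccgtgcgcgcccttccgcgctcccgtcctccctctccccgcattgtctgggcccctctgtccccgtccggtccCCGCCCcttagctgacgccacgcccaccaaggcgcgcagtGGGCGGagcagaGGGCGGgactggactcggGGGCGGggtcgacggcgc
Cntnap2, chr6:45059811-45060060, plus strand: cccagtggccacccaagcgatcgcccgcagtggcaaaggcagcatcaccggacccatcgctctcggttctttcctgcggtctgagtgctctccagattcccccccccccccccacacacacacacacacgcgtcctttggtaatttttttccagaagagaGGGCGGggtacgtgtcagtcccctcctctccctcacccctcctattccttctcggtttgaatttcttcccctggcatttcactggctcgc
Nrcam, chr12:44328635-44328884, plus strand: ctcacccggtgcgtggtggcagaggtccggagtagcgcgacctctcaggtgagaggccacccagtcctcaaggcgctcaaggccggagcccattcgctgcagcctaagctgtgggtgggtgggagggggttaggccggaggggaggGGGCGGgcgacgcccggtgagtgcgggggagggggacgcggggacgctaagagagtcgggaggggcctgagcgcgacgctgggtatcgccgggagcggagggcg
A GC box was present in 5 of the 8 members found and in 32.7% of all 32851 windows of this length. Cadm4 had 4, Cntnap2 and Nrcam had 1 each, and Cadm3 had 0 in this window. G and C made up 66.8% of the Cadm3 window, 75.2% for Cadm4, 59.6% for Cntnap2 and 72.4% for Nrcam, against a median of 52.4% over all windows. The CCAAT box (CCAAT, either strand) was present in 2 of the 8, Cntn1 and L1cam, and in 33.8% of all windows. The TATA box (TATAAA, either strand) was in 0 of the 8 and 12.4% of all windows, and the left arm of the RE1 element of the repressor REST (TTCAGCACC, either strand) in 0 of the 8 and 0.301% of all windows. No match overlapped another. These matches describe letters only, and Cntnap2, Cntn1, Nfasc and L1cam had further starts in the table.

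Array medians of the deposited log2 values lay between 8.63 and 8.71, and 0 pairs of arrays were identical. Nothing in the labels says that each sample was a separate animal, so p-values measure the spread between these samples. Lepr itself ran from 6.78 to 8.98 in db/+ and from 5.85 to 6.56 in db/db (limma, Benjamini-Hochberg adjusted p = 0.00659). The db/+ arrays were not alike. The mean of 11 neuron markers was between 11.51 and 12.28 across db/+ 101, 103, 104 and 106, between 7.67 and 8.64 across db/+ 105, 404 and 407, and between 6.84 and 7.53 in db/db. Of these markers 9 fell and 2 did not pass the test. RMA levels hold no 0 and no detection call. Satellite glia markers (4 genes, 1 lower) had a mean of 11.92 to 12.24 across db/+ 101, 103, 104 and 106 and of 9.77 to 10.69 on the other arrays. Among db/+ arrays this step was in Kcnj10 (9.18 to 10.42 against 6.28 to 6.66) and Fabp7 (12.48 to 12.80 against 6.93 to 8.24). Glul (13.58 to 13.66 against 13.56 to 13.75) and Gja1 (11.96 to 12.51 against 12.12 to 12.46) did not show it. Myelinating Schwann cell markers were high on every array, with a mean of 11.27 to 12.19 in db/+ and 10.51 to 11.73 in db/db (4 of 7 lower). The adipocyte mean (3 of 6 higher) was 11.94 to 12.77 in db/+ and 13.07 to 13.21 in db/db. The macrophage mean (2 of 6 higher) was 11.60 to 12.64 and 11.84 to 12.55, the perineurial mean (1 of 4 higher) 10.43 to 11.26 and 10.72 to 11.08, the endothelial mean (1 of 5 higher, 1 lower) 9.67 to 10.13 and 9.75 to 10.02, and the skeletal muscle mean (0 of 6 called by limma, 0 with an unadjusted p below 0.05) 6.49 to 11.94 and 6.37 to 11.73. RNA quality was read from the actin controls, whose 3' level exceeded the 5' level by 0.96 to 1.39 across db/+ 101, 103, 104 and 106, 0.40 to 1.14 in the other db/+ arrays and 0.48 to 0.92 in db/db. For the Gapdh controls the same excess was 0.72 to 0.99, 0.55 to 1.34 and 0.50 to 0.87. What part these markers and measures had in the member differences was not tested. In whole nerve the share of a cell type and the RNA per cell cannot be told apart, among db/+ arrays or between genotypes.

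Of the 8 measured members, 6 were lower in db/db nerve, 0 were higher and 2 did not pass the test (limma, Benjamini-Hochberg adjusted p under 0.05 over all genes). Over all genes 25.1% were called, 11.7% lower and 13.4% higher. The members' median difference was −1.33 on the log2 scale, against 0.02 for all genes. By the exact rank-sum test 5 were lower and 0 higher, against 8.6% and 11.6% of all genes. By limma 7 lower and 0 higher had an unadjusted p below 0.05, against 18.6% and 19.8%. Without db/+ 101, 103, 104 and 106, the arrays rich in neuronal transcripts, 1 member was called lower, against 6.78% of all genes, and the median was −0.58, against −0.05 for all genes. That member was Cadm3, which was also the 1 called when the number series was added there as a block (10.4% of all genes lower). At an unadjusted p below 0.05 (limma), 2 members were lower without the block, Cadm3 and Cntnap2, against 16.1% of all genes. With the block 5 were lower (Cadm3, Cntnap2, Ank3, L1cam and Ncam1), against 2968 of all 15437 genes. In arrays 101 to 112, 5 members were lower (Cadm3, Cntnap2, Ank3, L1cam and Ncam1), against 8.67% of all genes, and in arrays 404 to 411 1 (Cadm3), against 4.17%. Over all arrays with the block the count was 5, against 12.9%.

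The Cadm genes encode the pair of immunoglobulin-domain proteins that line the internode, Cadm3 on the axon and Cadm4 facing it on the Schwann cell. Cadm3 fell in db/db nerve under every choice of arrays tried. Its log2 level was 11.43, 11.28, 11.27 and 11.30 across db/+ 101, 103, 104 and 106, and 10.96, 10.56 and 10.97 across db/+ 105, 404 and 407. In the 6 db/db arrays it ran from 9.25 to 10.01 with a median of 9.53. The groups did not overlap, the highest db/db array (111) standing below the lowest db/+ array (404). This held for 3.51% of all genes in this direction and for 1 of the 8 members. The means were 11.11 ± 0.30 (SD, n = 7) in db/+ and 9.59 ± 0.27 (SD, n = 6) in db/db. Cadm3 fell by 1.52 ± 0.16 (SE) on the log2 scale, a 2.87-fold difference (limma, Benjamini-Hochberg adjusted p = 3.51e-05), and its p ranked 90 among 15437 genes.

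Cadm3 also fell by 1.24 ± 0.18 (SE) without db/+ 101, 103, 104 and 106 (limma, Benjamini-Hochberg adjusted p = 0.00281). In arrays 101 to 112 it fell by 1.63 and in arrays 404 to 411, 2 of db/+ and 3 of db/db, by 1.21 (limma, adjusted p = 0.00337 and 0.0279). When the number series entered the model as a block, the fall was 1.46. Its groups did not overlap without the 4 arrays (9.99% of all genes in this direction), in arrays 101 to 112 (12.2%) or in arrays 404 to 411 (24.5%). Without the 4 arrays, neuron markers were also lower in db/db. Their means on the remaining db/+ arrays (7.67 to 8.64) all lay above those of db/db (6.84 to 7.53), and 4 of the 11 fell. These were Tubb3, Uchl1, Isl1 and Rbfox3, by 2.10, 1.40, 1.40 and 1.12 (limma, adjusted p = 0.0294, 0.00576, 0.0117 and 0.0211), and for the first 3 the groups did not overlap. In all, 10 of the 11 were below 0. Stmn2 was not, at 9.90 to 10.50 on the remaining db/+ arrays and 9.85 to 10.71 in db/db. In arrays 404 to 411, where Cadm3 was called, 0 of the 11 neuron markers were called and 8 were below 0. Their median there was −0.54. At an unadjusted p below 0.05 (limma), 3 of them were lower and 1 was higher. Without overlap of the groups, 3 were lower and 1 was higher. The neuron marker mean was 7.86 and 7.67 across db/+ 404 and 407, and 7.53 or less in db/db. Of the 7 myelinating Schwann cell markers, 0 were called without the 4 arrays (limma, 2 with an unadjusted p below 0.05), 6 were below 0 and their median was −0.51. What part either had in the Cadm3 difference was not tested.

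**Figure D1:**
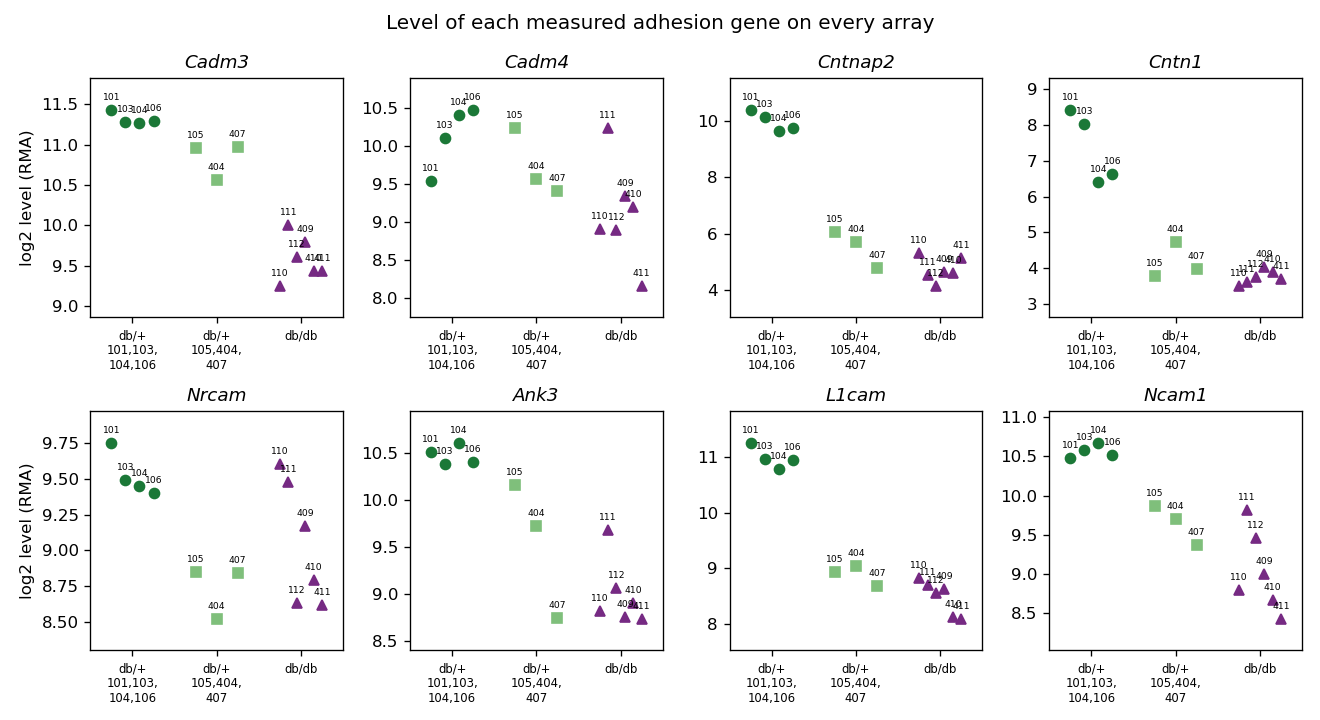
Log2 level (RMA) of the 8 measured adhesion genes, with 1 point per array and its sample number, for db/+ 101, 103, 104 and 106 (circles), db/+ 105, 404 and 407 (squares) and the 6 db/db arrays (triangles); each panel has its own vertical scale, which does not start at 0. Cadm3 separates the genotypes on every array, whereas Cntnap2, Cntn1 and L1cam are high in the 4 db/+ arrays at left and low on the other 9.

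Cadm4, the Schwann cell partner, was lower on average but missed the threshold. It was at 9.54, 10.10, 10.40 and 10.47 across db/+ 101, 103, 104 and 106, and at 10.24, 9.57 and 9.40 across db/+ 105, 404 and 407. In db/db it ran from 8.16 (411) to 10.24 (111) with a median of 9.05, so that the groups overlapped through the single array db/db 111. Its mean was 9.96 ± 0.45 (SD, n = 7) in db/+ against 9.12 ± 0.68 (SD, n = 6) in db/db, and the difference was −0.84 on the log2 scale, with a 95% interval from −1.47 to −0.21 (limma, Benjamini-Hochberg adjusted p = 0.0515). Without db/db 111, left out here because of its own Cadm4 level, the difference was −1.06 and passed (limma, Benjamini-Hochberg adjusted p = 0.0108). Without db/db 411, the lowest array, it was −0.64 and did not pass (adjusted p = 0.108). Of the 13 fits that each left out 1 array, 3 called Cadm4. Unlike the other 7 members, Cadm4 was not higher in every one of db/+ 101, 103, 104 and 106 than across db/+ 105, 404 and 407. Without those 4 arrays its difference was −0.61, with an interval from −1.48 to 0.25. Db/db 111 also had the highest Schwann cell marker mean among the db/db arrays and db/db 411, lowest for Cadm4, the lowest (10.51).

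Cntnap2 encodes Caspr2, which with contactin-2 holds potassium channels at the juxtaparanode. It had the greatest difference of the members, and that difference came with the division among db/+ arrays. Its level was 10.39, 10.13, 9.66 and 9.77 across db/+ 101, 103, 104 and 106, but 6.06, 5.72 and 4.81 across db/+ 105, 404 and 407. In db/db it ran from 4.16 to 5.32 with a median of 4.63. Db/+ 407 thus lay within the db/db range. Cntnap2 fell by 3.34 ± 0.92 (SE) on the log2 scale over all arrays (limma, Benjamini-Hochberg adjusted p = 0.0198), from 8.08 ± 2.42 (SD, n = 7) to 4.74 ± 0.43 (SD, n = 6). The interval without the 4 arrays ran from −1.50 to −0.09 around −0.79, and the adjusted p was 0.131. In arrays 404 to 411 the difference was −0.46 (adjusted p = 0.417), and −4.53 in arrays 101 to 112. The difference between these series was 4.07 ± 1.32 (SE) by the interaction term of limma, with an unadjusted p of 0.0101 and a Benjamini-Hochberg adjusted p of 0.265. Of the 8 members 1 had an unadjusted p below 0.05 for that term, as did 15.3% of all genes, and 0 genes passed after adjustment.

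Cntn1, the axonal contactin of the paranode, behaved likewise at a lower level. It was at 8.42, 8.04, 6.42 and 6.62 across db/+ 101, 103, 104 and 106, at 3.77, 4.72 and 3.97 across db/+ 105, 404 and 407, and between 3.50 and 4.02 in db/db with a median of 3.72. All db/db arrays and 3 of the db/+ arrays were therefore near the bottom of the scale, and by its mean the gene was among those that the filter on dim genes removed. Cntn1 fell by 2.25 ± 0.71 (SE) over all arrays (limma, Benjamini-Hochberg adjusted p = 0.0360). Leaving out any 1 of 10 arrays ended the call, as did adding the number series to the model (adjusted p = 0.0514), and without the 4 arrays the difference was −0.41 (adjusted p = 0.229).

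**Figure D2:**
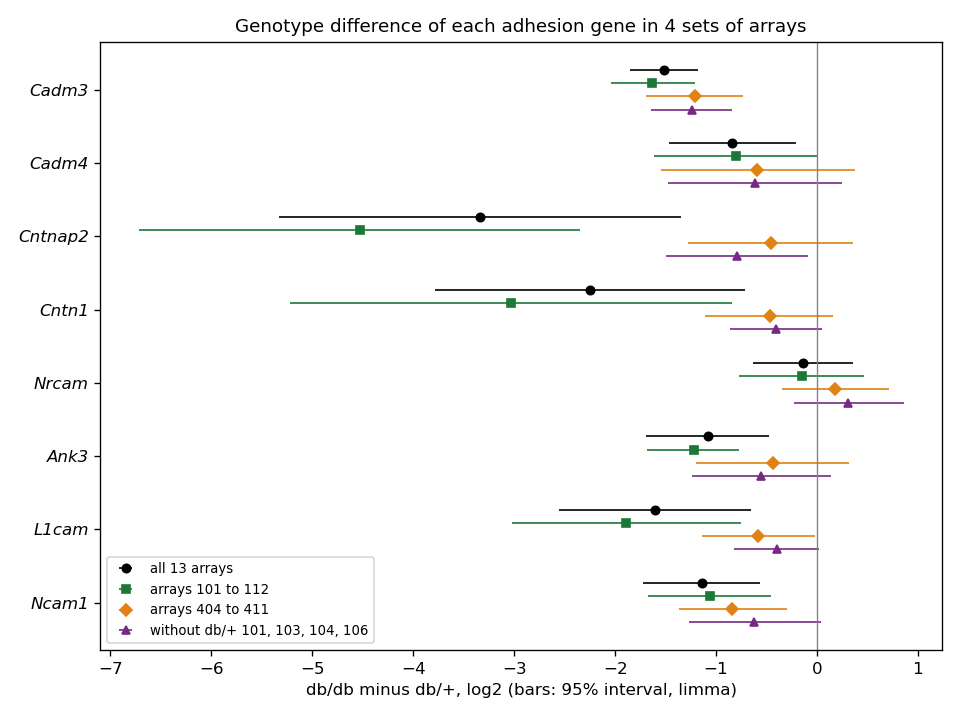
Difference db/db minus db/+ on the log2 scale for each measured adhesion gene, with 95% intervals from limma, for all 13 arrays, arrays 101 to 112, arrays 404 to 411, and all arrays but db/+ 101, 103, 104 and 106. Cadm3 keeps its place in all 4 sets, with intervals below 0, while Cntnap2 goes from −3.34 to −0.79 when the 4 arrays are left out and Nrcam lies on both sides of 0.

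Among the genes of the node itself, Ank3 was lower and Nrcam was not distinguished between genotypes. Ank3, whose product ankyrin-G ties the nodal proteins to the spectrin skeleton, was at 10.51, 10.39, 10.61 and 10.41 across db/+ 101, 103, 104 and 106, and at 10.16, 9.73 and 8.75 across db/+ 105, 404 and 407. In db/db it ran from 8.74 to 9.69 with a median of 8.87. Here 6 of the 7 db/+ arrays were above every db/db array, and db/+ 407 lay among the db/db values. Ank3 fell by 1.08 ± 0.28 (SE) on the log2 scale (limma, Benjamini-Hochberg adjusted p = 0.0143), and it missed the threshold by the exact rank-sum test (adjusted p = 0.0802) and without the 4 arrays (−0.55, limma adjusted p = 0.281). With each array left out in turn, the Ank3 difference lay between −1.30 and −0.99 and was called in all 13 fits. The greatest fall, 1.30, came without db/+ 407, the array among the db/db values (limma, Benjamini-Hochberg adjusted p = 0.000519).

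Nrcam, the nodal adhesion molecule that binds gliomedin, was at 9.75, 9.49, 9.45 and 9.40 across db/+ 101, 103, 104 and 106, and at 8.85, 8.52 and 8.84 across db/+ 105, 404 and 407. In db/db it ran from 8.62 to 9.60 with a median of 8.98. The db/db range overlapped both sets of db/+ arrays and lay within the whole db/+ range of 8.52 to 9.75. The difference was −0.14 on the log2 scale, with an interval from −0.63 to 0.36 (limma, Benjamini-Hochberg adjusted p = 0.699), and without the 4 arrays 0.31, with an interval from −0.23 to 0.86.

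L1cam and Ncam1, the adhesion molecules of unmyelinated fibres, were lower over all arrays. L1cam stood at 11.26, 10.98, 10.80 and 10.95 across db/+ 101, 103, 104 and 106, at 8.94, 9.04 and 8.68 across db/+ 105, 404 and 407, and between 8.09 and 8.83 in db/db with a median of 8.60. It fell by 1.60 ± 0.44 (SE) on the log2 scale (limma, Benjamini-Hochberg adjusted p = 0.0201). In db/+ 407 it was below the highest db/db array, and without the 4 arrays the difference was −0.40 (adjusted p = 0.198). Ncam1 showed narrower steps between the sets of arrays. Its level was 10.48, 10.58, 10.67 and 10.52 across db/+ 101, 103, 104 and 106, 9.87, 9.70 and 9.37 across db/+ 105, 404 and 407, and 8.43 to 9.82 in db/db with a median of 8.90. Ncam1 fell by 1.14 ± 0.27 (SE) on the log2 scale (limma, Benjamini-Hochberg adjusted p = 0.00884), and the differences of −0.62 without the 4 arrays and −0.84 in arrays 404 to 411 did not pass (adjusted p = 0.199 and 0.0746). In arrays 404 to 411 the groups did not overlap for Ncam1, L1cam, Cadm4 and Cadm3, a separation that 24.5% of all genes showed in these 5 arrays.

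The division among the db/+ arrays touched nearly all members. In 7 of the 8, each of db/+ 101, 103, 104 and 106 was above each of db/+ 105, 404 and 407, which was the case for 12.1% of all genes. The gap between the lowest of the 4 and the highest of the 3 ran from 11.27 against 10.97 for Cadm3 to 9.66 against 6.06 for Cntnap2. These arrays were set apart by neuronal transcripts measured in the same data, so the gap is a description and was not tested.

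**Figure D3:**
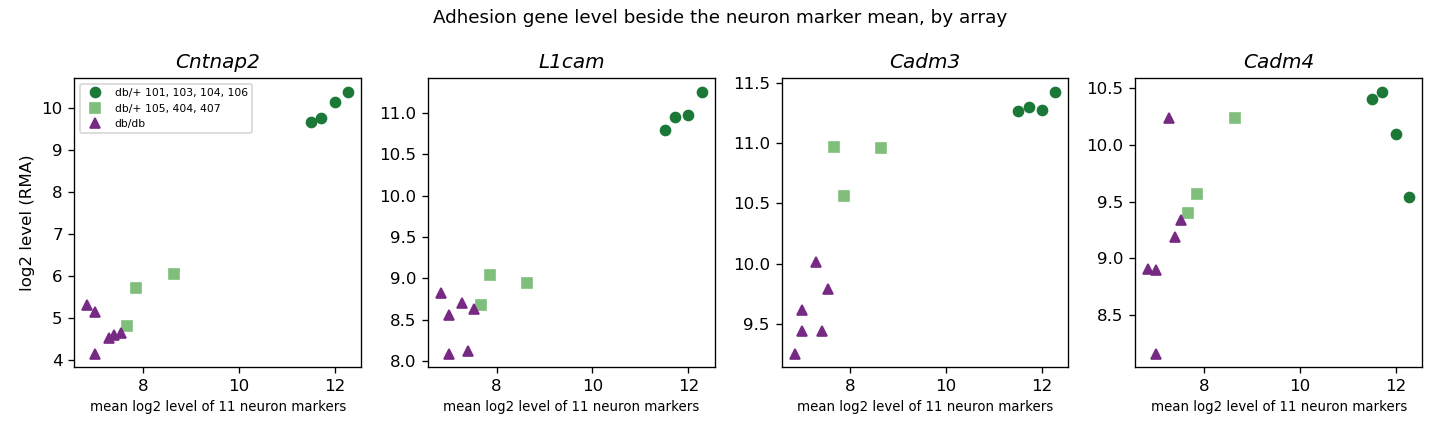
Log2 level of Cntnap2, L1cam, Cadm3 and Cadm4 (vertical, own scale in each panel) against the mean log2 level of the 11 neuron markers (horizontal), with 1 point per array. Cntnap2 and L1cam step up with the 4 db/+ arrays whose neuron marker mean is 11.51 or more, Cadm3 in db/db lies below db/+ also among arrays with a mean of 8.64 or less, where the db/+ means are again above those of db/db, and Cadm4 in db/+ 101 is among the lower db/+ values despite the highest neuron marker mean.

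The genes whose profiles over the 13 arrays lay nearest to each member, by the root mean square difference of levels centred on their mean, were read as a description of shape. Nearest to Cadm3 were Pdzd4 (0.19) and Tmtc2 (0.22). Pdzd4 had the same separation of genotypes, at 11.37 to 12.04 in db/+ and 10.12 to 10.48 in db/db. Nearest to Cadm4 were Mal (0.20), a proteolipid of myelin, and Fa2h (0.21), the enzyme that hydroxylates myelin lipids. Nearest to Ncam1 were the Schwann cell calcium-binding protein gene S100b (0.20) and Armcx1 (0.20). Nearest to Cntnap2 were Dpp6 (0.33), a potassium channel subunit gene, and Chgb (0.34), which encodes a protein of secretory granules. Nearest to Cntn1 were Car10 (0.23) and F2rl2 (0.28), to L1cam Tmem255a (0.22) and Hopx (0.23), to Ank3 Vat1l (0.22) and Ephb6 (0.23), and to Nrcam Tpd52 (0.17) and Abr (0.20).

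Other genes of the same domains were followed in a list of 42, of which 37 were measured. Of these 14 were lower in db/db, 0 were higher and 23 did not pass (limma, Benjamini-Hochberg), against 11.7% lower over all genes. The median difference was −0.71, and at an unadjusted p below 0.05 there were 20 lower and 0 higher, against 18.6% and 19.8% of all genes. By listed domain, 3 of 10 genes of the node, 4 of 9 of the paranode, 5 of 12 of the juxtaparanode and 2 of 6 of the internode were lower. The Schwann cell genes Lgi4 and Gjb1 were listed under the juxtaparanode, although neither is confined to it. The count of 14 was 7 when any 1 of db/+ 103, 104 and 106 or db/db 110 was left out, 9 without db/+ 101 and 8 without any 1 of db/db 112, 409, 410 and 411, and 7 by the exact rank-sum test. Without db/+ 101, 103, 104 and 106 it was 2 of 37, Scn2b and Epb41l3, against 6.78% of all genes. There 2 others were higher (6.12% of all genes). When the number series was added as a block there, 5 were lower (Ank2, Cldn19, Epb41l3, Lgi4 and Scn2b, against 10.4% of all genes) and 2 higher (8.95%). In arrays 404 to 411, 2 were lower (4.17% of all genes) and 1, Cntn2, was higher (4.93% of all genes).

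At the node, the sodium channel subunit gene Scn2b fell by 0.91 ± 0.15 (SE) on the log2 scale (limma, Benjamini-Hochberg adjusted p = 0.00101). It was at 6.84 to 7.94 in db/+ and 6.32 to 6.74 in db/db, without overlap, and it fell by 0.65 without the 4 arrays and by 0.85 in arrays 404 to 411 (limma, adjusted p = 0.0290 and 0.0270). Scn4b and Scn9a, a subunit and a pore gene of sodium channels, fell by 2.04 and 3.50 over all arrays (adjusted p = 0.0401 and 0.0402) and stood at −0.44 and −0.29 without the 4 arrays (adjusted p = 0.613 and 0.504). Over all arrays with the number series as a block both calls were lost, at −1.87 and −3.12 (adjusted p = 0.0584 and 0.0565). Outside the 4 arrays Scn4b was highest in db/db 411, db/+ 407 and db/db 112, at 10.28, 9.89 and 9.35. These arrays also had the highest skeletal muscle marker means there, at 11.73, 11.04 and 10.67. What part muscle had in its level was not tested. Scn8a, the main sodium channel of the node, was chosen after its values were seen. It was at 9.49 to 10.51 across db/+ 101, 103, 104 and 106, 6.47 to 6.81 in the other db/+ arrays and 6.94 to 7.34 in db/db. Its difference was −1.42 over all arrays (limma, Benjamini-Hochberg adjusted p = 0.146) and 0.50, higher in db/db and past the threshold, without the 4 arrays (adjusted p = 0.0258).

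At the paranode, Epb41l3, which encodes the protein 4.1B that links Caspr and Caspr2 to the axonal skeleton, fell by 1.47 ± 0.36 (SE) without overlap of the groups (limma, Benjamini-Hochberg adjusted p = 0.0107). It fell by 0.52 without the 4 arrays (adjusted p = 0.0359). Ank2, the ankyrin of the paranode, fell by 1.34 over all arrays and by 0.61 in arrays 404 to 411 (adjusted p = 0.00500 and 0.0397), and stood at −0.61 without the 4 arrays (adjusted p = 0.0566), where the block returned the call at −0.68 (adjusted p = 0.00564). Cntnap1, which encodes Caspr, the partner of contactin-1, fell by 0.95 (adjusted p = 0.0366), with db/+ 105 at 5.38, below every db/db array. Cdh1, the cadherin of Schwann cell autotypic junctions, fell by 1.45 (adjusted p = 0.0133) and stood at −0.69 without the 4 arrays (adjusted p = 0.274).

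At the juxtaparanode, the potassium channel genes Kcna1 and Kcna2, whose products Caspr2 gathers there, fell by 1.15 and 1.12 (limma, Benjamini-Hochberg adjusted p = 0.0405 and 0.0260). They stood at −0.31 and −0.43 without the 4 arrays (adjusted p = 0.609 and 0.420). In the same list, the Schwann cell gene Lgi4, which encodes a secreted signal of myelination, fell by 0.93 without overlap (adjusted p = 0.00378). Gjb1, the connexin of non-compact myelin, fell by 1.29 (adjusted p = 0.00535). Without the 4 arrays Lgi4 stood at −0.82 and Gjb1 at −0.93 (adjusted p = 0.0751 and 0.102), and with the block on these arrays Lgi4 was called at −0.89 and Gjb1 was not (adjusted p = 0.0332 and 0.0649). Adam23, named after its values were seen, was the other gene called higher without the 4 arrays, at 0.70 (adjusted p = 0.0138), against 0.11 over all arrays (adjusted p = 0.771). At the internode, the tight junction gene Cldn19 fell by 1.43 (adjusted p = 0.00451) and stood at −1.18 without the 4 arrays (adjusted p = 0.0834), and with the block there it was called at −1.31 (adjusted p = 0.0251).

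**Figure D4:**
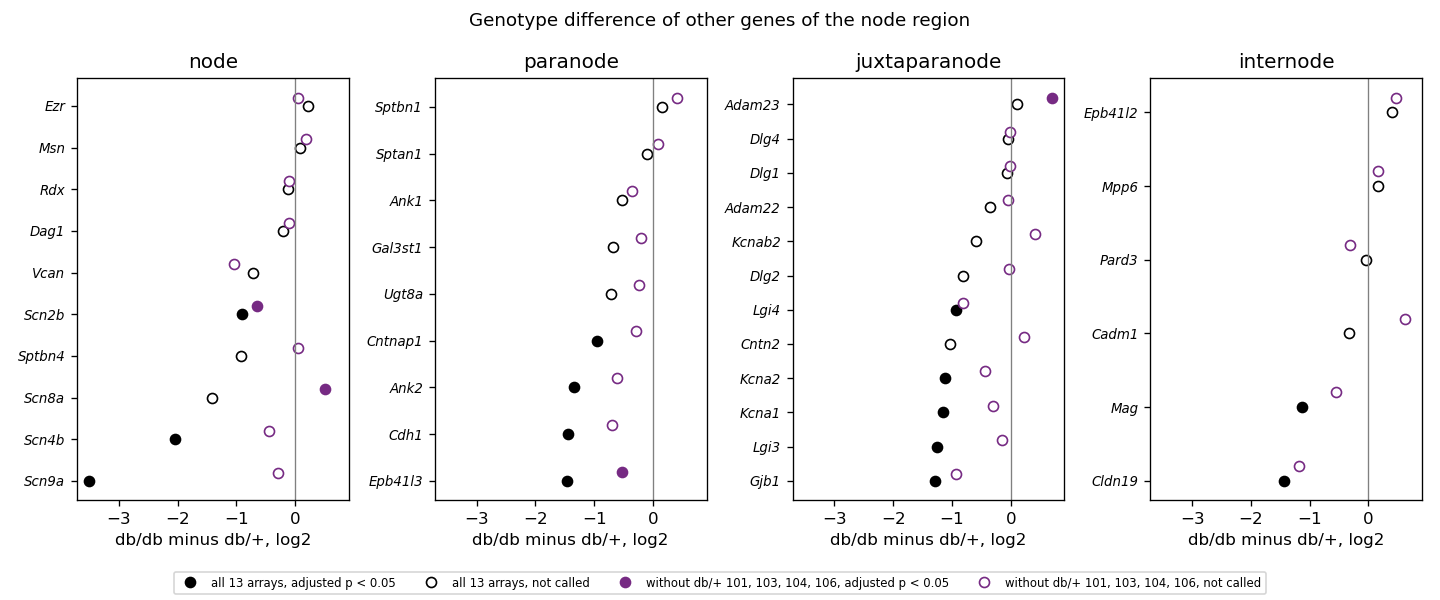
Difference db/db minus db/+ on the log2 scale for 37 other genes of the node, paranode, juxtaparanode and internode, over all 13 arrays (black) and without db/+ 101, 103, 104 and 106 (purple), with filled points where the adjusted p from limma is below 0.05. Most points move toward 0 without the 4 arrays, Scn2b and Epb41l3 stay called lower, and Scn8a and Adam23 are then called higher.

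Among 11 relatives of the members in the contactin, Caspr, L1 and Ncam families, 6 were measured, 1 was lower, 0 were higher and 5 did not pass (limma, Benjamini-Hochberg). Over all genes 11.7% were called lower. All 6 were lower at an unadjusted p below 0.05, against 18.6% of all genes. Cntnap4, a Caspr relative of interneuron synapses, fell by 1.45 ± 0.41 (SE) on the log2 scale (adjusted p = 0.0218). The contactin genes Cntn3 and Cntn6 stood at −1.52 and −1.11 (adjusted p = 0.0523 and 0.0631). Without the 4 arrays Cntnap4, Cntn3 and Cntn6 stood at −0.35, −0.04 and −0.16, and 0 relatives were called by limma (1 lower with an unadjusted p below 0.05, against 16.1% of all genes).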

How the data were processed

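Sciatic nerve RNA (75 ng a sample) was amplified into biotin-labelled targets for single-colour arrays, as the labels' protocols describe. The values are the deposited log2 levels from RMA (per the submitters' processing notes), which were taken over unchanged. In RMA, background is corrected, arrays are equalised and folds of dim genes come out too small. The sources used here give no RMA version or array design. Without detection calls, the precision rests on the number of arrays. Of 15479 probe sets, 42 controls were left out. A probe table named 14801 of the other 15437, each gene having 1 probe set, so transcript forms of a gene cannot be told apart.

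Groups followed the genotype in the labels. Genotype was tested with lmFit and eBayes of limma 3.58.1 (R 4.3.3), as a two-sided test, adjusted by Benjamini-Hochberg over 15437 genes at a threshold of 0.05. Unless a sentence names another test, its adjusted p is from this fit. The interaction of genotype with the 2 number series (101 to 112, 404 to 411) was fitted the same way. What the numbers mark is not stated. On simulated data for 15437 genes the fit found 74% of genes with a log2 change of 1 and 96% of those with 2, with 6 false calls among 176. The simulated noise was normal, independent between genes and equal in both groups, without the division among db/+ arrays. These shares therefore need not hold for the members.

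The members and lists (partners, relatives, cell type markers) were chosen with earlier results of these data known. Genes named are the members, the 12 partners and 3 relatives with the smallest p, the 2 nearest profiles of each member, and Lepr. The rule also held the 2 brightest markers of each cell type. Of these only those of neurons (Uchl1 and Stmn2) and of satellite glia (Glul and Gja1) are named. Outside this rule, Tubb3, Isl1, Rbfox3, Kcnj10, Fabp7, Scn8a, Adam23, Cntn2 and Ezr were named after their values were seen. Alternatives were other moderation, renewed quantile normalization, median centring, a filter on the dimmest genes, array weights, each number series alone, both as a block, an exact rank-sum test and leaving out each array. Leaving out db/+ 101, 103, 104 and 106 rests on their neuronal transcripts and was added after the data were seen. Other steps used scipy 1.17.1, numpy 2.4.6 and pandas 2.3.3 under Python 3.11.15, and figures matplotlib 3.10.9.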

Additional observations from a re-analysis of the deposited data

Results flagged for a closer look

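Ank3 in db/db 111 stood at 9.69, apart from the other 5 db/db arrays, which lay between 8.74 and 9.07. Its gap to the nearest array was 0.651 of the group's range, above Dixon's critical value of 0.625 for 6 samples. Over the 8 members 16 groups were examined this way, and chance flags about 1 in 20. The same array had the highest db/db values of Cadm3, Cadm4 and Ncam1, at 10.01, 10.24 and 9.82, and the highest db/db mean of Schwann cell markers, at 11.73. Whether this bears on its Ank3 level was not tested.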

How the results depend on the processing

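Cadm3 kept its direction and its call in all 24 alternatives, between −1.63 and −1.21. Ank3, Cntnap2, L1cam and Ncam1 kept theirs with each array left out. Nrcam turned to 0.18 in arrays 404 to 411, 0.31 without db/+ 101, 103, 104 and 106, and 0.26 there with the number series as a block, with a call in none. Cntn1 was called without db/+ 105, 404 or 407 and lost without any of the other 10, at an adjusted p of up to 0.0676 (limma). Cadm4 passed without db/+ 404, db/+ 407 or db/db 111, with array weights, with trend and robust moderation and with the dim filter, which tests fewer genes.

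Leaving out each array gave 5 to 7 members, 7 to 18 partners and 1 to 5 relatives called lower, 0 of each called higher, and 2893 to 4529 genes called, against 6, 14, 1 and 3867. Arrays 404 to 411 gave 1 member, 2 partners and 0 relatives lower, 1 partner (Cntn2) higher, and 1404 genes. Without db/+ 101, 103, 104 and 106 there were 1, 2 and 0 lower, 2 partners higher, and 1992 genes, and with the block there too 1, 5 and 0 lower and 2 partners higher. Array weights gave 23 partners and 6 relatives lower, 1 partner (Ezr) higher, and 6525 genes. The exact rank-sum test gave 7 partners, arrays 101 to 112 gave 3 relatives, trend and robust moderation 2, and the dim filter 0. Some of these settings used smaller sets of genes or arrays, and what caused the changes in count was not tested. No paired analysis was possible because the groups share no replicate numbers.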
